A study of Mus musculus with 45 samples.

Results

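Autophagy and lysosome genes were described in adipocytes of insulin-resistant and ApoE-null mice on a Western or a Chow diet. The 38 genes were taken from a list of gene symbols, and the array held a probe set with a single matching symbol for each of them, 95 of 45037 probe sets in all. They are 38 of the 18193 genes that the array names in this way. A gene with several probe sets was represented by the probe set of highest mean level over all 45 arrays. The other probe sets are given where their own adjusted p was under 0.01. The values are log2 intensities from Affymetrix MG430-2.0 arrays, on which a step of 1 is a factor of 2, and they are levels of messenger RNA, not of protein or of autophagic activity.

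All mice were female C57BL/6 and lacked ApoE, and each array held RNA from adipocytes of the parametrial and periovarian fat of 1 mouse. D mice were in addition heterozygous for deletions of the insulin receptor and of IRS1 (IR+/- IRS1+/- ApoE-/-), and E mice were ApoE-/- only. From 8 weeks of age they were fed a Western (high-fat) diet, in groups DW16 (n = 9), DW8 (n = 5), EW16 (n = 8) and EW8 (n = 6), or Chow, in groups DC16 (n = 5), DC8 (n = 7) and EC16 (n = 5), where 16 and 8 are the weeks on the diet. No Chow group of E mice at 8 weeks was analysed here, and all mice carry at least the ApoE deletion, so that no group is a wild type. In RNA from a population of cells, fewer cells of a type and less RNA per cell cannot be told apart.

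Autophagy encloses cytoplasm in a membrane, the autophagosome, which fuses with the lysosome, where acid hydrolases break the content down. In adipocytes it is known for its part in adipocyte differentiation and in the turnover of mitochondria, and the lysosome also hydrolyses lipids delivered to it. The genes fall into the kinase complex that starts the process, the lipid kinase complex that marks the membrane, the conjugation machinery that attaches ATG8 proteins to lipid, the ATG8 proteins and their cargo receptor, regulators, lysosomal membrane proteins, acid hydrolases, and the vacuolar ATPase that acidifies the lysosome. Many lysosomal genes carry the CLEAR motif, which is bound by the transcription factors TFEB and TFE3, both of them among the 38 genes.

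The promoters that hold this motif are shown because the values of the genes that carry it are set side by side below. RefSeq promoters (GRCm38.p6, 300 bases from 250 before to 50 after the start) were found for 29 of the 38 genes, in 33 entries. The motif was searched as TCACGTGA, whose reverse complement is the same letters, and as its inner part CACGTG, which every TCACGTGA also contains. TCACGTGA was found in the promoters of 6 of the 29 genes, and 0.974% of all 32851 promoters in the table (320) held it. CACGTG was found in 10 of the 29 genes (the same 6 and Atg5, Atg7, Ctsl and Lamp1), and 7.15% of all promoters (2349) held it. A match is only a run of letters, not a measured binding site. The 6 promoters are printed in the direction of transcription, with TCACGTGA in capitals.
Atg3: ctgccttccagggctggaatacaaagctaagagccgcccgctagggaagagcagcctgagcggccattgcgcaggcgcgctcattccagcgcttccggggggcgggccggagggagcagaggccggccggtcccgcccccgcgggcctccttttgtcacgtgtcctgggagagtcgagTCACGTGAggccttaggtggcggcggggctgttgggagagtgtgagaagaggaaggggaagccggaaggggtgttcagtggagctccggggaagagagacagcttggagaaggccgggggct
Atp6v0d1: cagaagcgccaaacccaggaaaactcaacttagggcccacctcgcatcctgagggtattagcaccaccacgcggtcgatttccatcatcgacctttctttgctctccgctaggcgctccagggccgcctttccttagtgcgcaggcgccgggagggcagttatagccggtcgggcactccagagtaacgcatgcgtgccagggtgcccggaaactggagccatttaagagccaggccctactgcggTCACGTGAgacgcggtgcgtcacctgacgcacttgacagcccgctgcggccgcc
Atp6v1a: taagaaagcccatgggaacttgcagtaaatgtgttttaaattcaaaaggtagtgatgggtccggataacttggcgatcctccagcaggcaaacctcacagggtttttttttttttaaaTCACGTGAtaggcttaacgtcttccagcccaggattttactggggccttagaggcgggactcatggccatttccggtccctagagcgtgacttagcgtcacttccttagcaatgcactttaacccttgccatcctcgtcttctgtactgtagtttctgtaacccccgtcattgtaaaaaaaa
Ctsa: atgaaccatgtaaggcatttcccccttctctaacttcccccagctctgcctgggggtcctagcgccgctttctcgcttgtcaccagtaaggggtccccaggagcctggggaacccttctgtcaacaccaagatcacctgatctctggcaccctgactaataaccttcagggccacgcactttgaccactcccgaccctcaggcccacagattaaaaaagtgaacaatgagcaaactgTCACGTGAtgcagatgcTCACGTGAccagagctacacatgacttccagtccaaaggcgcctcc
Ctsd: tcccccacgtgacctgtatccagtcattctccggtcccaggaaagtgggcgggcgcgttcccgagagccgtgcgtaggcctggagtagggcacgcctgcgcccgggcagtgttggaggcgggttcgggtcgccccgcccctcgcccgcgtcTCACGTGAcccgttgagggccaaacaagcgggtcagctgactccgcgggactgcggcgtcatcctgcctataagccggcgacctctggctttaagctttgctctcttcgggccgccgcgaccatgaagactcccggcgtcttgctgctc
Mcoln1: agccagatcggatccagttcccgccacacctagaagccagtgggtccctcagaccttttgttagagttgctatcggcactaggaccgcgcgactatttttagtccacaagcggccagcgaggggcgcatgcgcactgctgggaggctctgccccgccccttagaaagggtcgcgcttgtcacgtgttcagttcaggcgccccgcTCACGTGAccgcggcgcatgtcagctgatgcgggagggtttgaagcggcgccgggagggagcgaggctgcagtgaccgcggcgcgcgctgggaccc
In GRCm38.p6 these windows are Atg3 at chr16:45158579-45158878 (plus strand), Atp6v0d1 at chr8:105566015-105566314 (minus strand), Atp6v1a at chr16:44139210-44139509 (minus strand), Ctsa at chr2:164833523-164833822 (plus strand), Ctsd at chr7:142387778-142388077 (minus strand) and Mcoln1 at chr8:3500269-3500568 (plus strand). Ctsa, cathepsin A, holds the motif in 2 places, on both sides of its start.

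The probe sets of the 38 genes covered a wide range of intensities. Of the 38 genes, 29 had a mean level of 9 or more over all arrays, 9 lay between 6 and 9, and 0 lay below 6, while 7428 of the 18193 genes did. The highest was Ctsb, cathepsin B, at 13.82, above 99.8% of genes, followed by Ctsl (13.56), Lamp1 (13.12) and Ctsd (13.00). Among the autophagy genes Map1lc3b (12.75), Map1lc3a (12.70) and Sqstm1 (12.02) led, and the lowest were Prkaa1 (7.62), Pik3c3 (7.72), Atg5 and Tfeb (both 7.75). These are intensities of different probes and do not order the transcripts by abundance. The representative probe sets of Becn1, Wipi1, Gabarapl1, Mcoln1 and Lipa are of the type that can bind several transcripts (suffix _s_at), as is that of Map1lc3a (_x_at), and their values may include related transcripts.

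10 of the 45 arrays had a compressed distribution of values, and all 10 were from mice on the Western diet for 16 weeks, namely DW16 mice 1 to 7 and EW16 mice 1 to 3. Their 95th percentile was between 10.14 and 10.85, against 10.95 to 11.14 on the other 35 arrays, and their SD over probe sets was between 2.11 and 2.35, against 2.39 to 2.53. On these narrow-range arrays highly expressed genes read low. In DW16 against DC16, the 4561 genes with a mean level of 9 or more had a median difference of -0.42, and the 7428 genes below 6 one of 0.13. After a further quantile normalization over all arrays, which gives every array the same distribution, these medians were -0.03 and 0.03. What set these arrays apart was not tested, and in the D mice it cannot be told apart from 16 weeks of Western diet, since only DW16 mice 8 and 9 were outside it. The main results are therefore also given without these arrays or after quantile normalization, and a value with no such addition is as deposited and over all mice. Of 7 adipocyte markers, Adipoq (14.42), Fabp4 (14.59) and Lpl (14.53) had the highest mean levels over all 45 arrays. The others lay between 10.64 (Lep) and 13.14 (Cidec). Insr was lower in D mice (median 9.35) than in E mice (10.26), and Irs1 likewise (10.79 against 11.25), with overlap between the genotypes. Apoe had a median of 7.01 in D mice and 6.97 in E mice, all of which lack it.

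The median level of the 38 genes in each mouse followed this split. It averaged 9.73 ± 0.399 in DW16 mice (SD, n = 9) and 10.40 ± 0.131 in DC16 mice (n = 5), and 10.01 ± 0.506 in EW16 mice (n = 8) against 10.30 ± 0.065 in EC16 mice (n = 5). In the groups at 8 weeks it was 10.34 ± 0.162 in DW8 (n = 5), 10.49 ± 0.0891 in DC8 (n = 7) and 10.32 ± 0.145 in EW8 mice (n = 6). The 7 narrow-range DW16 mice lay between 9.24 and 10.04 and the other DW16 mice at 10.22 and 10.29. The 3 narrow-range EW16 mice lay between 9.17 and 9.65 and the other 5 between 10.26 and 10.49, so that the low values in both Western diet groups belonged to the narrow-range arrays.

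**Figure D1:**
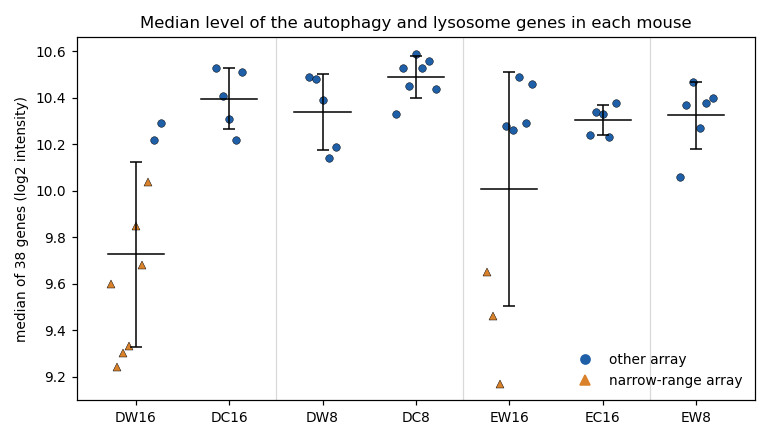
The median log2 intensity of the 38 autophagy and lysosome genes (y axis) in each mouse of the 7 groups (x axis), with group mean and SD as lines and narrow-range arrays as orange triangles. The 7 narrow-range DW16 mice sit between 9.24 and 10.04 and the 3 narrow-range EW16 mice between 9.17 and 9.65, and the other mice of these groups between 10.22 and 10.49.

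The effect of 16 weeks of Western diet in insulin-resistant mice was given by DW16 against DC16. Of the 38 genes, 34 had a lower mean in DW16 mice, and their median difference was -0.65, against -0.01 over all genes. With limma and a Benjamini-Hochberg adjusted p under 0.01, 1 member fell (Ulk1) and 0 rose, while 3.95% of all genes were called, 3.47% as lower. At an adjusted p under 0.05, 20 members were lower, where 18.4% of all genes were. In the level band of 9 or more, which holds 29 members, 15 were lower at 0.05, and 34.6% of the 4561 genes in it were. After quantile normalization the median of the members was -0.30, 28 had a lower mean, and Ulk1 was again the single member called (3.58% of genes called). By role, the median was -0.84 for the proton pump, -0.73 for the hydrolases and -0.17 for the ATG8 proteins with their receptor, and in the initiation complex the differences ran between -1.25 and 0.40.

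Ulk1, the kinase that starts autophagosome formation and that AMPK and mTORC1 phosphorylate, had 8.91, 8.47, 8.73, 8.76, 9.06, 8.90, 9.05, 10.12 and 10.00 in DW16 mice 1 to 9, against 10.24, 10.38, 10.25, 10.49 and 10.43 in DC16 mice. Every DW16 value lay below every DC16 value, and the 7 narrow-range mice (8.47 to 9.06) were below the other DW16 mice. The mean was 9.11 ± 0.568 in DW16 mice (SD, n = 9) and 10.36 ± 0.11 in DC16 mice (n = 5), a difference of -1.25 (SE 0.237, limma adjusted p = 0.00643). After quantile normalization it was -0.88 (SE 0.164, limma adjusted p = 0.00581). With the narrow-range arrays left out, the 2 remaining DW16 mice differed from DC16 by -0.30 (limma adjusted p = 0.627). Leaving out any 1 mouse other than DW16 mouse 8 or 9 raised the adjusted p of limma to between 0.0114 and 0.0229, past the threshold, with differences between -1.28 and -1.17. Values of 3 members did not overlap between the 2 groups, all lower in DW16 (Ulk1, Mcoln1 and Atp6v1b2), where 3.94% of all genes did not overlap.

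The other genes of the initiation complex were uneven. Atg13, which links ULK1 to its partners, differed by -0.75 (SE 0.214, limma adjusted p = 0.0256; -0.46 with adjusted p = 0.0685 after quantile normalization), and Ulk2, a second kinase of the family, by -0.21 (adjusted p = 0.363), which became 0.16 after quantile normalization. Rb1cc1, the scaffold also called FIP200, had a higher mean in DW16 (difference 0.40, adjusted p = 0.14, and 0.76 with adjusted p = 0.0261 after quantile normalization). The 3 nucleation genes all had lower means. Pik3c3, the lipid kinase VPS34, differed by -0.95 (adjusted p = 0.014), Becn1, its regulatory subunit Beclin 1, by -0.87 (adjusted p = 0.0547), and Wipi1, which binds the lipid that VPS34 makes, by -0.77 (adjusted p = 0.0218). After quantile normalization Pik3c3 differed by -0.76 (adjusted p = 0.0303), Becn1 by -0.51 (adjusted p = 0.127) and Wipi1 by -0.40 (adjusted p = 0.154). Over DW16 mice 8 and 9 alone the difference of Becn1 was 0.21, and those of Pik3c3 and Wipi1 were both -0.57.

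Of the 6 conjugation genes 5 had lower means. Atg5, which is joined to ATG12 and with ATG16L1 directs lipidation, had the largest difference of the 38 genes in this comparison, -1.32 (SE 0.303, limma adjusted p = 0.0118). Its DW16 values were 7.28, 5.83, 6.27, 6.79, 6.80, 6.43, 7.45, 8.27 and 7.30, against 8.01, 8.23, 8.26, 8.50 and 8.26 in DC16 mice, and only DW16 mouse 8 reached the DC16 range. It was -1.16 (adjusted p = 0.0193) after quantile normalization and -0.47 (adjusted p = 0.702) over DW16 mice 8 and 9 alone. Atg16l1 differed by -0.52 (adjusted p = 0.017), Atg3, the enzyme that transfers ATG8 proteins to lipid, by -0.59 (adjusted p = 0.0407) and Atg12 by -0.51 (adjusted p = 0.0724). Atg7, the activating enzyme of both conjugation systems, differed by 0.30 (adjusted p = 0.102), and Atg4b, the protease that trims ATG8 proteins, by 0.00 on rounding (adjusted p = 0.986). After quantile normalization Atg16l1 (-0.15), Atg3 (-0.15) and Atg12 (-0.12) had adjusted p between 0.283 and 0.571, whereas Atg7 was higher by 0.63 (adjusted p = 0.0183) and Atg4b by 0.33 (adjusted p = 0.0711).

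Of the ATG8 genes, whose products coat the autophagosome, none passed 0.05. Map1lc3b (LC3B) averaged 12.73 in DW16 mice and 12.71 in DC16 mice, a difference of 0.02 (SE 0.17, limma adjusted p = 0.945), with DW16 values between 12.21 and 13.29. Map1lc3a differed by -0.17, Gabarapl1 by -0.24 and Gabarapl2 by -0.08 (adjusted p between 0.458 and 0.728). Sqstm1, the cargo receptor p62, differed by -0.56 (adjusted p = 0.0455). After quantile normalization all 4 ATG8 genes had positive differences, from 0.19 to 0.41 (adjusted p = 0.0232 for Map1lc3b), and Sqstm1 one of -0.12 (adjusted p = 0.53), so that the sign for Map1lc3a, Gabarapl1 and Gabarapl2 depended on the scaling.

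Among the regulators, the transcription factors of the CLEAR motif differed in opposite directions. Tfe3 differed by -0.91 (SE 0.224, limma adjusted p = 0.0154) and Tfeb by 0.31 (SE 0.132, adjusted p = 0.102), and after quantile normalization Tfe3 differed by -0.55 (adjusted p = 0.048) and Tfeb by 0.61 (adjusted p = 0.0305). Tfe3 read 9.66 and 9.72 in DW16 mice 8 and 9 but only 8.37 to 8.65 in DW16 mice 1 to 7, against 9.62, 9.82, 9.77, 9.41 and 9.80 in DC16 mice. The low values of Tfe3 were therefore all on narrow-range arrays. Prkaa1, a catalytic subunit of AMPK, differed by -0.75 (adjusted p = 0.0666), Stk11 (LKB1), the kinase upstream of AMPK, by -0.52 (adjusted p = 0.039) and Ddit4, an inhibitor of mTORC1, by -0.29 (adjusted p = 0.482). After quantile normalization Prkaa1 differed by -0.59 (adjusted p = 0.139), Stk11 by -0.18 (adjusted p = 0.351) and Ddit4 by 0.12.

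Of the 15 genes of the lysosomal membrane, the hydrolases and the proton pump, 10 were lower in DW16 mice at 0.05. At that threshold 18.4% of all genes were lower, and 34.6% of those with a mean level of 9 or more. All 15 had lower means, with differences between -1.04 and -0.60. Ctsd, the aspartic protease cathepsin D, had the largest, with DW16 values of 12.51, 11.55, 11.72, 11.81, 12.60, 12.42, 12.80, 13.28 and 13.51, against 13.46, 13.33, 13.66, 13.41 and 13.66 in DC16 mice (difference -1.04, SE 0.283, limma adjusted p = 0.0214). The lowest 7 were the narrow-range arrays. Mcoln1, the lysosomal calcium channel TRPML1, had 8.80, 7.95, 8.24, 8.37, 9.00, 8.56, 8.85, 9.18 and 9.31 in DW16 mice, against 9.38, 9.79, 9.48, 9.55 and 9.37 in DC16 mice, with no overlap (difference -0.82, SE 0.196, adjusted p = 0.0137). Hexa, a subunit of beta-hexosaminidase, differed by -0.92, Atp6v1h, a pump subunit of the cytosolic part, by -0.97, Atp6v0d1, of the membrane part, by -0.89, and Lipa, the acid lipase of the lysosome, by -0.75 (adjusted p between 0.0308 and 0.0485). After quantile normalization all 15 still had lower means, from -0.62 for Ctsd to -0.18 for Atp6v1b2, and Ctsd (limma adjusted p = 0.0156), Mcoln1 (0.0222), Lamp1 (0.0258) and Hexa (0.0351) passed 0.05. The share of all genes on that scale is given only at 0.01 (3.58%). Over DW16 mice 8 and 9 alone, the differences of Lipa (0.02), Atp6v1h (0.02), Ctsz (0.03), Ctsa (0.09), Ctsb (0.12) and Atp6v0d1 (0.23) were positive.

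**Figure D2:**
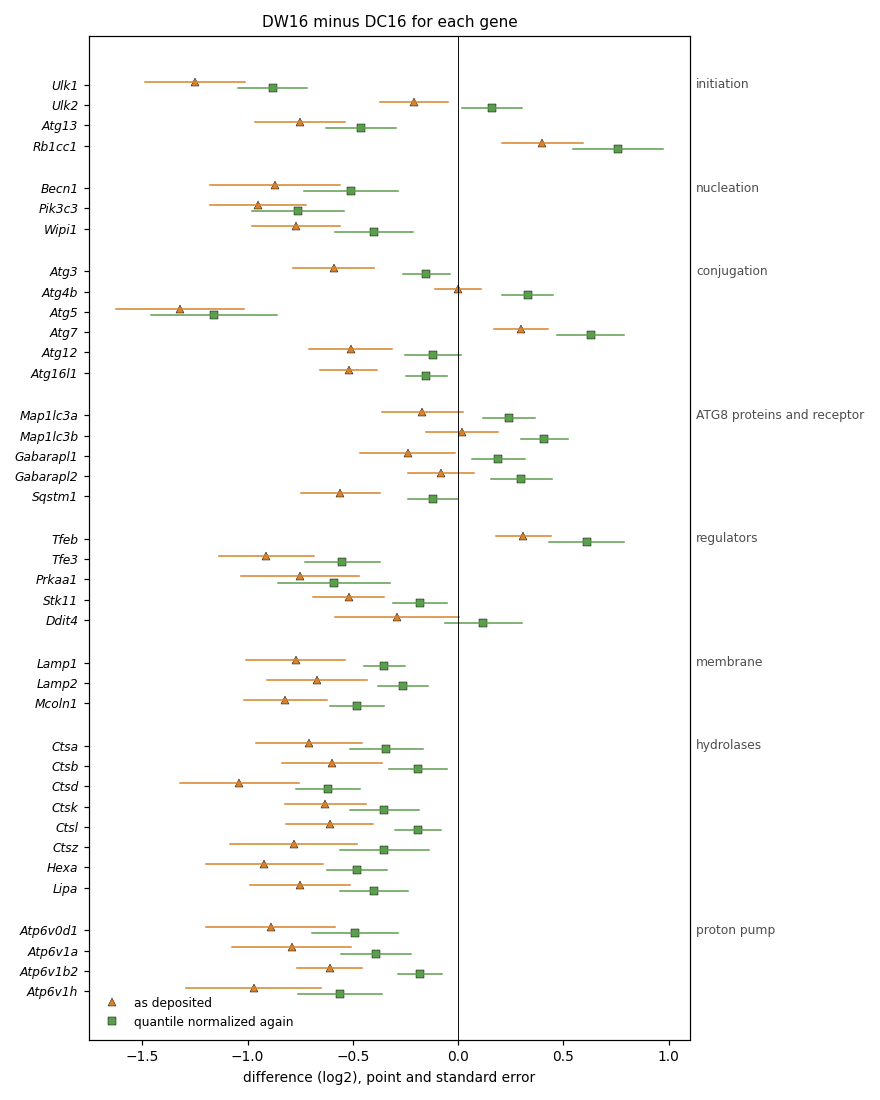
The difference DW16 minus DC16 in log2 intensity (x axis) with its standard error for each of the 38 genes (y axis, grouped by role), with values as deposited as orange triangles and after a further quantile normalization as green squares. Genes of the lysosomal membrane, hydrolases and proton pump lie left of 0 on both scales, and the ATG8 genes (Map1lc3a, Map1lc3b, Gabarapl1, Gabarapl2) lie right of 0 after quantile normalization.

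With the narrow-range arrays left out, DW16 mice 8 and 9 against the 5 DC16 mice gave 0 members and 0% of genes called by limma at 0.01 (4 members and 1473 genes at an unadjusted p under 0.05), and the median of the members was -0.03. Of the 38 genes 23 had lower and 15 higher means there, against 34 and 4 over all mice. Among those with negative differences were Pik3c3 (-0.57), Atp6v1b2 (-0.32), Ulk1 (-0.30), Mcoln1 (-0.27) and Atg3 (-0.24), with limma adjusted p of 0.561 or more. Ddit4 had the smallest adjusted p there, at 11.89 and 11.90 in the DW16 mice against 10.77 to 11.31 in DC16 mice (difference 0.82, limma adjusted p = 0.264), while the narrow-range DW16 mice read between 10.05 and 11.12.

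Other probe sets of 3 members fell in DW16 against DC16 where the representative did not pass 0.01. The probe set 1424917_a_at of Wipi1 differed by -1.34 (limma adjusted p = 0.00591), 1416671_a_at of Mcoln1 by -0.92 (adjusted p = 0.00826) and 1428024_at of Map1lc3b by -0.80 (adjusted p = 0.00566). The probe sets of Map1lc3b therefore disagreed, since the representative, at a mean level of 12.75 against 5.55 for 1428024_at, differed by 0.02.

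Among genes of the same pathways that are not members, most means were also lower in DW16 mice, and the share called differed between the lists, beside the 3.95% of all genes called. Of 22 other autophagy genes measured, 20 had lower means and 1 fell (Atg16l2, -0.72, limma adjusted p = 0.00719). All 24 other lysosomal genes measured had lower means (17 after quantile normalization), and 4 fell, namely Lgmn, an asparaginyl endopeptidase (-1.32, adjusted p = 0.00643), Smpd1, acid sphingomyelinase (-1.31, adjusted p = 0.00763), Tpp1, a tripeptidyl peptidase (-0.91, adjusted p = 0.00932), and Npc1, the cholesterol transporter (-0.87, adjusted p = 0.00789). Of 12 other proton pump subunits 9 had lower means (5 after quantile normalization) and 0 were called. Of 26 upstream kinases and nutrient sensors 17 had lower means (10 after quantile normalization) and 4 fell, Tsc2, the brake on mTORC1 (-1.79, adjusted p = 0.0082), Akt1s1 (-1.05, adjusted p = 0.00915), Prkab1, a subunit of AMPK (-0.98, adjusted p = 0.00818), and Rptor, the mTORC1 scaffold (-0.95, adjusted p = 0.00788).

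Markers of cell types were read in the same comparison, and the lists differed. Of 6 mesothelial markers 5 had lower means (median -0.76, Lrrn4 called lower), with a summed level of 8.90 to 10.97 in DW16 mice against 9.44 to 11.18 in DC16 mice. Macrophages are rich in lysosomes, and of 12 macrophage markers 7 had lower means (median -0.08, Lyz2 called lower), with summed levels of 12.60 to 13.66 in DW16 mice and 12.86 to 13.95 in DC16 mice. All 5 endothelial markers had lower means (median -0.94, Pecam1 called lower), with summed levels of 10.31 to 12.06 in DW16 mice against 11.63 to 11.91 in DC16 mice. For 5 lymphocyte markers the summed levels did not overlap, with 9.41 to 11.14 in DW16 mice against 11.86 to 12.60 in DC16 mice. That sum is of intensities before the log, so Ighm (mean level 11.13) outweighs the others in it (3.87 for Cd3g to 6.88 for Cd8a). The mean log2 level over the 5 markers overlapped, with 6.24 to 7.20 in DW16 mice against 6.69 to 7.06 in DC16 mice. For 6 fibroblast and stroma markers they were 13.90 to 15.09 against 14.88 to 15.22. The 7 adipocyte markers themselves had 15.47 to 16.65 in DW16 mice against 16.45 to 16.60 in DC16 mice. Their part in the values of the 38 genes was not tested.

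The early effect of the diet in insulin-resistant mice was given by DW8 against DC8, where all arrays had the wider range. The median of the members was -0.07, against -0.04 over all genes, with 21 lower and 17 higher means. With limma 0 members were called at an adjusted p under 0.01, where 0.797% of all genes were. At an unadjusted p under 0.05 there were 13 members, for which no share of all genes is given. At an adjusted p under 0.05, 4 members were lower, Atg12, Ctsz, Mcoln1 and Ctsl, where 2.46% of all genes were. Among genes with a mean level of 9 or more, 4 of 29 members and 3.71% of the 4561 genes were lower. Ctsl, cathepsin L, had 13.63, 13.70, 13.64, 13.67 and 13.67 in DW8 mice, and 13.77, 13.94, 13.83, 13.81, 13.99, 13.94 and 14.02 in DC8 mice (difference -0.24, SE 0.0634, limma adjusted p = 0.0458). Mcoln1 had 9.13, 9.06, 9.01, 9.01 and 8.67 in DW8 mice, and 9.21, 9.54, 9.15, 9.27, 9.48, 9.25 and 9.45 in DC8 mice (-0.36, SE 0.0943, adjusted p = 0.0426).

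For both genes every DW8 value lay below every DC8 value. The same held for Ctsz, cathepsin Z, with 11.17 to 11.63 in DW8 mice against 11.64 to 11.85 in DC8 mice (-0.32, limma adjusted p = 0.0378), and 3.11% of all genes did not overlap. Atg12 differed by -0.32 (adjusted p = 0.0353). Other genes of the lysosome had positive differences, Lamp2 of 0.24 (adjusted p = 0.076) and Atp6v1h of 0.29 (adjusted p = 0.093). A second probe set of Rb1cc1, 1449292_at, rose by 0.95 (adjusted p = 0.00269), while its representative differed by 0.16. Among pathway genes that are not members, Atp6ap1, an accessory subunit of the proton pump, fell (-0.38, adjusted p = 0.0088).

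The effect of 16 weeks of Western diet in ApoE-null mice with intact insulin receptor genes was given by EW16 against EC16. The members had a median difference of -0.38, against 0.01 over all genes, with 31 lower means. With limma 1 member fell (Atg3) and 0 rose, where 3.75% of all genes were called, 3.52% as lower. Probe sets other than the representative fell for Atg5 (1418236_s_at, -0.81, limma adjusted p = 0.00332) and Wipi1 (1424917_a_at, -0.99, adjusted p = 0.00581). At 0.05, 5 members were lower (Atg3, Tfe3, Gabarapl2, Mcoln1 and Wipi1), where 9.98% of all genes were. Among genes with a mean level of 9 or more, 5 of 29 members and 14.7% of the 4561 genes were lower. Values of 7 members did not overlap between the 2 groups, 6 lower and 1 higher (Rb1cc1), where 6.13% of all genes did not overlap.

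Atg3 had 11.01, 11.02, 10.79, 11.70, 10.77, 10.83, 10.81 and 10.65 in EW16 mice 1 to 8, against 11.88, 11.80, 11.77, 11.83 and 11.88 in EC16 mice. Low values came from narrow-range and other arrays alike, and EW16 mouse 4 stood near the EC16 mice. The mean was 10.95 ± 0.328 in EW16 mice (SD, n = 8) and 11.83 ± 0.0471 in EC16 mice (n = 5), a difference of -0.89 (SE 0.145, limma adjusted p = 0.00382). Without the narrow-range arrays it was -0.88 (SE 0.168, adjusted p = 0.00556), and after quantile normalization -0.62 (SE 0.202, adjusted p = 0.0723). Leaving out any 1 EC16 mouse brought the adjusted p of limma to between 0.01 and 0.015, not under the threshold, and the call held without any 1 EW16 mouse.

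**Figure D3:**
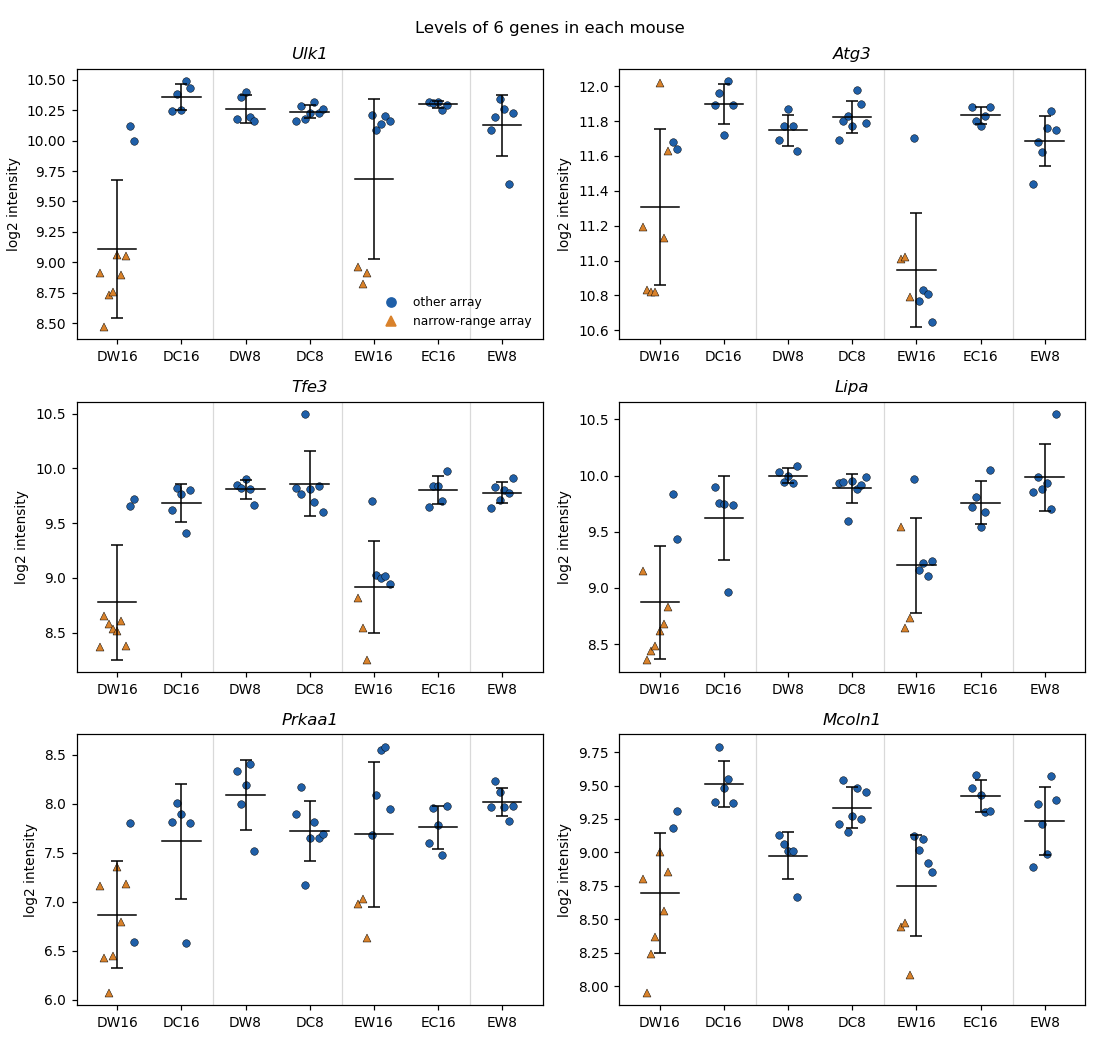
Log2 intensity (y axis) of Ulk1, Atg3, Tfe3, Lipa, Prkaa1 and Mcoln1 in each mouse of the 7 groups (x axis), with group mean and SD as lines and narrow-range arrays as orange triangles. Ulk1 is lowest on narrow-range arrays (8.47 to 9.06), followed by 9.64 in EW8 mouse 5. On wider-range arrays the DW16 and EW16 mice (10.00 to 10.21) lie below the DC16 and EC16 mice by less. Atg3 is low in EW16 mice 5 to 8 (10.65 to 10.83) on arrays of the wider range.

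With the 3 narrow-range arrays left out, EW16 mice 4 to 8 were set against the 5 EC16 mice. The median of the members was 0.01, and 6 members were called at 0.01, where 9.27% of all genes were. At 0.05, 4 members rose and 11 fell, where 24.1% of all genes were called. Those that fell at 0.01 were Atg3, Mcoln1 (-0.42, SE 0.0851, limma adjusted p = 0.00707), Gabarapl2, an ATG8 gene (-0.49, SE 0.1, adjusted p = 0.00735), and Tfe3 (-0.66, SE 0.139, adjusted p = 0.00819). Tfe3 had 9.70, 9.03, 9.00, 9.02 and 8.94 in these EW16 mice, against 9.65, 9.84, 9.84, 9.70 and 9.98 in EC16 mice, and only mouse 4 was within the EC16 range.

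Those that rose were Atp6v1a and Rb1cc1. Atp6v1a, the catalytic subunit of the proton pump, had 11.51, 11.85, 11.91, 11.86 and 11.87 in EW16 mice 4 to 8, against 11.32, 11.03, 11.12, 11.17 and 11.05 in EC16 mice (0.66, SE 0.0946, limma adjusted p = 0.0022). The narrow-range EW16 mice read 10.97, 10.01 and 9.81, so that over all 8 mice the difference was 0.09 (adjusted p = 0.889). Rb1cc1 had 8.94, 9.81, 9.70, 9.88 and 9.57 in EW16 mice 4 to 8, against 8.82, 8.80, 8.75, 8.93 and 8.92 in EC16 mice (0.74, SE 0.153, adjusted p = 0.00771), and 9.26, 9.03 and 9.03 on the narrow-range arrays. Rb1cc1 was thus above the EC16 mice in all 8 EW16 mice (0.56, SE 0.166, adjusted p = 0.0505 over all 8).

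**Figure D4:**
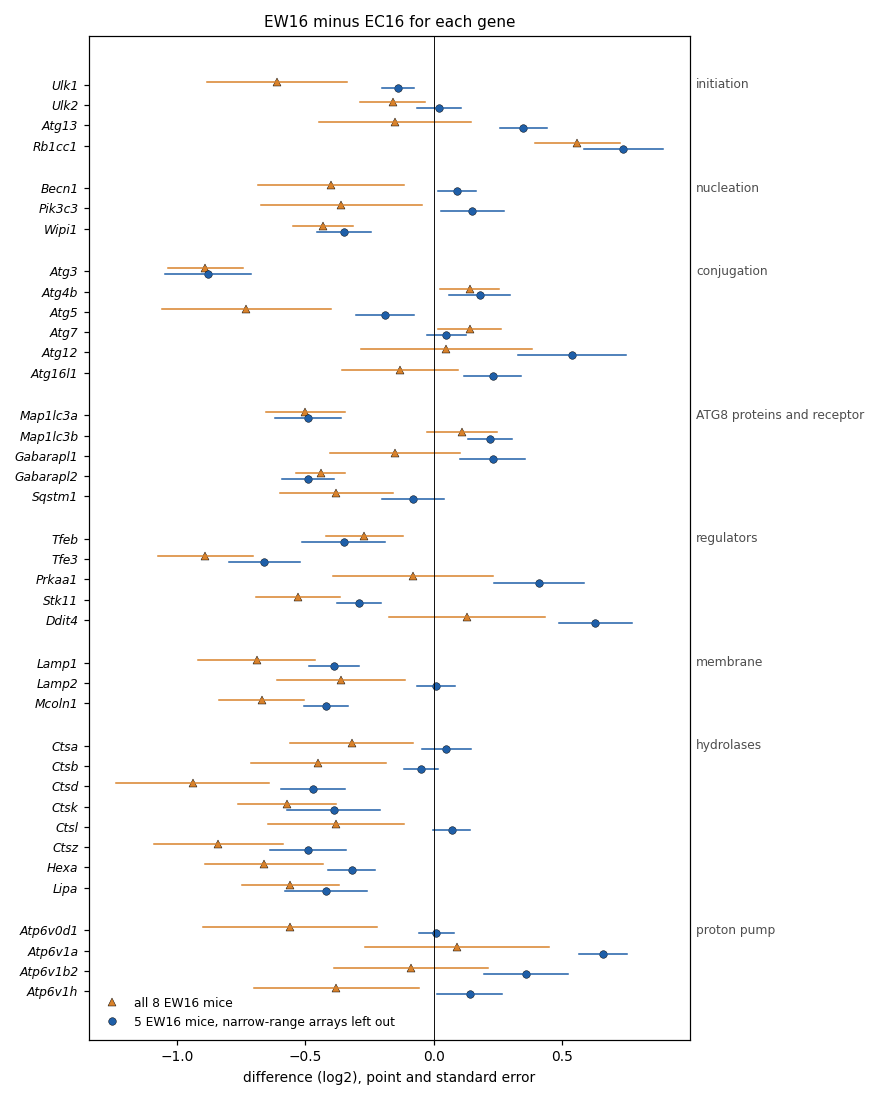
The difference EW16 minus EC16 in log2 intensity (x axis) with its standard error for each of the 38 genes (y axis, grouped by role), over all 8 EW16 mice as orange triangles and over the 5 EW16 mice without narrow-range arrays as blue circles. Atg3 stays at -0.89 and -0.88, Atp6v1a is at 0.09 over all 8 mice and at 0.66 over the 5, and Ulk1 at -0.61 over all 8 mice.

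Of the 6 genes whose promoters are printed above, 5 had lower means over all 8 EW16 mice, with -0.94 for Ctsd, -0.89 for Atg3, -0.67 for Mcoln1, -0.56 for Atp6v0d1 and -0.32 for Ctsa, and Atp6v1a differed by 0.09. Over the 5 EW16 mice without narrow-range arrays, Atp6v1a rose, Atg3 and Mcoln1 fell, Ctsd differed by -0.47 (limma adjusted p = 0.0224), Ctsa by 0.05 (adjusted p = 0.737) and Atp6v0d1 by 0.01 (adjusted p = 0.906). In DW16 against DC16 all 6 had lower means, from -1.04 for Ctsd to -0.59 for Atg3, and over DW16 mice 8 and 9 alone the 6 differences lay between -0.27 (Mcoln1) and 0.23 (Atp6v0d1). Among pathway genes that are not members, only Strada, a partner of LKB1, fell in EW16 against EC16 (-0.68, adjusted p = 0.00616), of 22 other autophagy, 24 other lysosomal, 12 other proton pump and 26 upstream genes measured. Of 6 mesothelial markers all had lower means in EW16 mice (median -1.10) and 3 fell (Upk3b, Krt19 and Wt1), with summed levels of 9.21 to 10.39 in EW16 mice against 10.48 to 11.42 in EC16 mice. Of 12 macrophage markers 7 had higher means (median 0.07), with summed levels of 12.64 to 14.31 in EW16 mice and 13.39 to 14.04 in EC16 mice. Summed levels of the endothelial markers were 10.39 to 12.16 in EW16 mice against 11.50 to 11.90 in EC16 mice, and of the lymphocyte markers 10.31 to 12.58 against 11.36 to 13.12. Those of the fibroblast and stroma markers were 13.80 to 15.05 against 15.03 to 15.57, and of the adipocyte markers 15.30 to 16.61 against 16.47 to 16.60. Their part in the values of the 38 genes was not tested.

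Time on the Western diet was compared within each genotype. The DW16 and EW16 mice are also those set against Chow above, so that the comparisons share these mice. In DW16 against DW8 the members had a median difference of -0.65, against 0.03 over all genes, and 35 had lower means. With limma 5 members fell at 0.01 (Lipa, Prkaa1, Ulk1, Tfe3 and Ulk2) and 0 rose, where 6.67% of all genes were called, 5.57% as lower. The probe set 1417491_at of Ctsb, not its representative, also fell (-0.79, limma adjusted p = 0.00775). At 0.05, 16 members were lower, where 18.4% of all genes were, and Atg4b was higher (0.31, adjusted p = 0.0307). In the level band of 9 or more, 11 of 29 members were lower at 0.05, and 41.2% of the 4561 genes in it were. The median difference in that band was -0.63 for the members and -0.45 for the genes. Values of 5 members did not overlap, 4 lower and 1 higher (Atg4b), where 5.29% of all genes did not overlap.

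Lipa averaged 8.87 in DW16 mice and 10.00 in DW8 mice, with DW16 values of 9.15, 8.36, 8.44, 8.48, 8.62, 8.68, 8.83, 9.84 and 9.44, against 10.03, 9.94, 10.00, 9.93 and 10.09 in DW8 mice (difference -1.12, SE 0.211, limma adjusted p = 0.00474). All DW16 mice were below all DW8 mice. Prkaa1 had 7.16, 6.43, 6.07, 6.45, 7.35, 6.79, 7.18, 7.80 and 6.59 in DW16 mice, against 8.33, 8.00, 8.19, 8.40 and 7.52 in DW8 mice (-1.22, SE 0.246, adjusted p = 0.00616). Mouse 9, on an array of the wider range, was among the low ones.

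Ulk1 differed by -1.15 (SE 0.237, limma adjusted p = 0.00668), Tfe3 by -1.03 (SE 0.22, adjusted p = 0.0075) and Ulk2 by -0.58 (SE 0.13, adjusted p = 0.00875). Ulk2 had 8.70 to 9.45 in DW16 mice against 9.59 to 9.85 in DW8 mice, without overlap, and the DW16 mice on wider-range arrays had 9.43 and 8.73. Its probe sets 1417846_at (-0.80, limma adjusted p = 0.00552) and 1448858_at (-0.95, adjusted p = 0.00414) also fell. After quantile normalization Lipa (-0.75, adjusted p = 0.00367), Prkaa1 (-1.05, adjusted p = 0.00878) and Ulk1 (-0.76, adjusted p = 0.00659) stayed under 0.01, and Tfe3 (-0.66, adjusted p = 0.019) and Ulk2 (-0.21, adjusted p = 0.267) did not. Leaving out 1 mouse at a time, in 14 fits, lost the call at 0.01 in 6 fits for Lipa, 7 for Prkaa1, 11 for Ulk2 and 12 each for Ulk1 and Tfe3. All 5 calls held without DW16 mouse 8 or 9, and the highest adjusted p of limma in these fits was between 0.0165 (Lipa) and 0.0285 (Ulk2). Leaving out the narrow-range arrays left 0 members called by limma (6 members and 3168 genes at an unadjusted p under 0.05) and a median of -0.03.

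In EW16 against EW8, 2 members fell, where 1.84% of all genes were called, 1.69% as lower, and the median of the members was -0.45, against 0.04 over all genes. Atg3 differed by -0.74 (SE 0.14, limma adjusted p = 0.00829), with EW8 values of 11.44 to 11.86 beside the EW16 values above, and Tfe3 by -0.87 (SE 0.168, adjusted p = 0.00912). Leaving out any 1 mouse other than EW16 mouse 4 lost both calls, with limma adjusted p of up to 0.0219 for Atg3 and 0.0243 for Tfe3. After quantile normalization Tfe3 (-0.64, adjusted p = 0.00664) passed 0.01 and Atg3 (-0.46, adjusted p = 0.14) did not. At 0.05, 6 members were lower (Atg3, Tfe3, Lipa, Map1lc3a, Ctsz and Sqstm1), where 8.61% of all genes were. Among genes with a mean level of 9 or more, 6 of 29 members and 15% of the 4561 genes were lower. Other probe sets that fell at 0.01 were 1418236_s_at of Atg5 (-0.68, limma adjusted p = 0.00699) and 1423141_at of Lipa (-0.98, adjusted p = 0.00676). Without the narrow-range arrays 0 members were called by limma at 0.01 (18 members and 6251 of 18193 genes at an unadjusted p under 0.05) and 10 at 0.05, where 14.1% of all genes were. Of these 10, Atg12 (0.75), Rb1cc1 (0.68), Atp6v1b2 (0.56) and Atp6v1a (0.46) rose, and Atg3 (-0.73), Tfe3 (-0.64), Lipa (-0.64), Map1lc3a (-0.57), Sqstm1 (-0.38) and Lamp1 (-0.32) fell, with adjusted p between 0.0177 and 0.0474.

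On Chow, DC16 against DC8, 0 members and 0% of genes were called by limma (4 members at an unadjusted p under 0.05), and the median of the members was -0.06. Atg5 had the smallest p, with a difference of 0.37 (SE 0.136, adjusted p = 0.428).

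**Figure D5:**
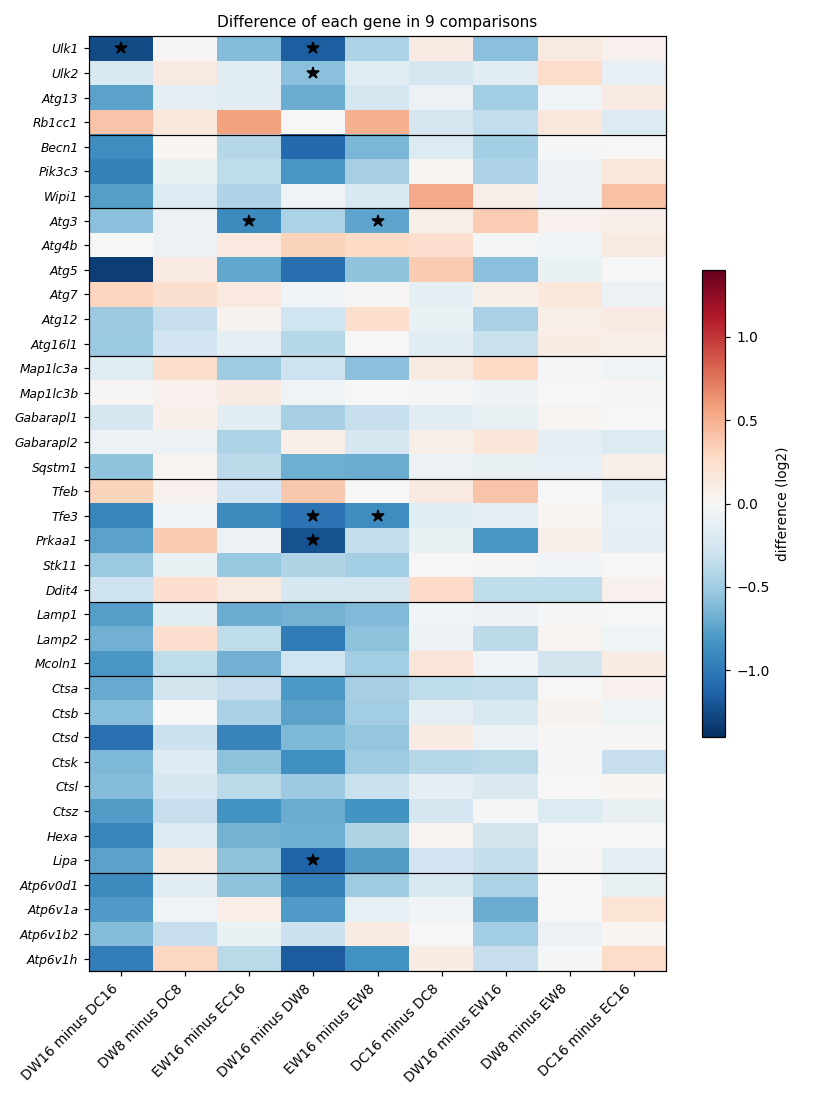
The difference of each of the 38 genes (rows, grouped by role) in 9 comparisons (columns) in log2 intensity, blue for lower and red for higher in the group named first, with a star where the limma adjusted p was under 0.01. Stars mark Ulk1 in DW16 minus DC16, Atg3 in EW16 minus EC16, 5 genes in DW16 minus DW8 and 2 in EW16 minus EW8.

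The genotype comparisons gave 0 members called. In DW16 against EW16, where 0% of genes were called by limma, the median of the members was -0.24 and 2 passed an unadjusted p of 0.05. They were Tfeb, at 7.69 to 8.58 in DW16 mice against 7.15 to 7.91 in EW16 mice (0.40, SE 0.128, adjusted p = 0.242), and Prkaa1, at 6.07 to 7.80 in DW16 mice against 6.63 to 8.58 in EW16 mice (-0.82, SE 0.289, adjusted p = 0.258). These groups held 7 of 9 and 3 of 8 narrow-range arrays. With those left out the median turned to 0.09, with 22 higher and 16 lower means, and 0 members and 0% of genes were called by limma (9 members and 4782 genes at an unadjusted p under 0.05). Tfeb then differed by 0.41 (adjusted p = 0.296) and Prkaa1 by -0.97 (adjusted p = 0.161). In DW8 against EW8 (0% of genes called, 0 members at an unadjusted p under 0.05) the median was 0.00, with differences between -0.35 and 0.26. In DC16 against EC16 (0% of genes, 1 member at an unadjusted p under 0.05) it was 0.01. That member was Atp6v1h, at 11.62 ± 0.103 in DC16 mice and 11.35 ± 0.0989 in EC16 mice (SD, n = 5 each; 0.26, SE 0.0794, limma adjusted p = 0.764).

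Whether the diet effect itself differed was tested as an interaction. Between D and E mice at 16 weeks, (DW16 minus DC16) minus (EW16 minus EC16), 0 members and 0% of genes were called by limma (1 member at an unadjusted p under 0.05). Tfeb had the smallest p, with 0.58 (SE 0.201, adjusted p = 0.786), and Ulk1 had -0.64 (SE 0.375, adjusted p = 0.793). Without the narrow-range arrays again 0 members were called by limma, but 13 members and 4012 of 18193 genes had an unadjusted p under 0.05. Atp6v1a then had the smallest, with -0.81 (SE 0.218, adjusted p = 0.0783), while Tfeb had 0.59 (adjusted p = 0.206) and Ulk1 -0.16 (adjusted p = 0.496). Between 16 and 8 weeks in D mice, (DW16 minus DC16) minus (DW8 minus DC8), 0 members and 0.0055% of genes were called at an adjusted p under 0.01. At an unadjusted p under 0.05 there were 20 members, for which no share of all genes is given. In the level band of 9 or more, 3 of 29 members were lower at an adjusted p under 0.05, and 14.1% of the 4561 genes in it were. Over all levels 4 members were lower at that threshold, where 5.8% of genes were. They were Ulk1 (-1.27, SE 0.268, adjusted p = 0.0186), Atg5 (-1.43, SE 0.358, adjusted p = 0.0279), Atp6v1h (-1.26, SE 0.367, adjusted p = 0.0423) and Lamp2 (-0.91, SE 0.27, adjusted p = 0.0447), and with the narrow-range arrays left out 0 members passed 0.05 by limma (3 members and 1880 genes at an unadjusted p under 0.05).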

How the data were processed

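The authors measured adipocyte RNA of 45 mice on Affymetrix MG430-2.0 arrays, and the deposited values are log2 intensities that the authors made with RMA express. The version of RMA express, and if arrays were processed jointly, are not given in the sources used here. All columns were used (0 left out). Probe sets were named from the platform annotation, in which 34945 of 45037 have 1 symbol, 932 several and 9160 none.

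Groups were compared with limma 3.58.1 (lmFit and eBayes, R 4.3.3) on the groups compared only, without a filter, p-values being adjusted by Benjamini-Hochberg over the 45037 probe sets and called under 0.01. Shares of genes called are over 18193 genes, each by its probe set of highest mean. Counts at an unadjusted p over all mice are given for the members only, without a share of all genes. The members and lists were chosen with earlier results of these data known. In DW16 against DC16, the called members and those with the 20 smallest adjusted p were named, in other comparisons up to 15 called and the 5 smallest. Others named were chosen after their values were seen. The study also used SAM, which was not run here. No batch or scan date was given in the sources used here. Replicate numbers were shared between groups, and the sample titles do not say what they mark. Same-numbered mice had correlations over probe sets between -0.44 and 0.53, and in no comparison was every pair over 0.1. That rule cannot exclude that some mice were paired. The median of same-numbered pairs was 0.19 in DW16 against EW16 (other pairs -0.04) and -0.11 in DC16 against DC8 (other pairs 0.03). The mice were treated as unpaired. The fit was also run on simulated data with the spread of the DC8, DC16 and DW8 mice. That simulation does not cover the wider spread of the DW16 mice. Alternatives were another spread, moderation, filter, scaling, threshold, probe set rule, a replicate block, arrays left out and each mouse left out.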

Additional observations from a re-analysis of the deposited data

Results flagged for a closer look

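In 20 of 266 sets of values, 1 gene in 1 group, a single mouse stood apart from the rest of its group by Dixon's criterion, which chance meets in about 1 of 20. DC16 mouse 4 was low in Rb1cc1 (8.11, others 8.70 to 8.89), Becn1 (9.78, others 10.38 to 10.59), Prkaa1 (6.58, others 7.80 to 8.01), Ctsb (13.40, others 14.03 to 14.14), Lipa (8.96, others 9.74 to 9.90) and Atp6v0d1 (10.72, others 11.56 to 11.72). EW8 mouse 5 was low in Ulk1 (9.64, others 10.09 to 10.34) and high in Gabarapl2 (10.09, others 9.52 to 9.67) and Tfeb (7.88, others 7.58 to 7.63). DC8 mouse 3 was low in Lipa (9.60, others 9.88 to 9.99) and high in Tfe3 (10.50, others 9.60 to 9.84) and Stk11 (9.27, others 8.76 to 8.98). DW8 mouse 5 was low in Ddit4 (9.02, others 11.22 to 11.80) and Mcoln1 (8.67, others 9.01 to 9.13) and high in Atp6v1a (11.48, others 11.25 to 11.31). EW16 mouse 4 was high in Atg3 (11.70, others 10.65 to 11.02). EW16 mouse 1 was high in Atg7 (8.94, others 8.13 to 8.46). DC8 mouse 7 was low in Sqstm1 (11.56, others 12.15 to 12.50). DC8 mouse 1 was low in Ctsa (10.28, others 10.65 to 10.85). EW8 mouse 6 was high in Lipa (10.55, others 9.70 to 9.99). Only the values of EW16 mouse 1 came from a narrow-range array.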

How the results depend on the processing

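Counts of members called at 0.01 by limma depended on the processing, and so did the share of genes called, given in brackets. With one spread over all 7 groups the counts were 15 in DW16 against DC16 (21% of genes) and 5 in EW16 against EC16 (9.48%). They were 16 in DW16 against DW8 (19%) and 6 in EW16 against EW8 (10.3%). With trended and robust moderation DW16 against DC16 gave 2 (5.3%) and EW16 against EW8 0 (1.43%). With probe sets above the median level only, DW16 against DC16 gave 5 (11.7%) and EW16 against EC16 2 (6.85%). Centring arrays on their median gave 3 in EW16 against EC16 (4.6%), and quantile normalization 3 there (3.68%) and 1 in EW16 against EW8 (1.13%). At an adjusted p under 0.05 the counts were 20 in DW16 against DC16 (25.3%), 4 in DW8 against DC8 (4.75%) and 5 in EW16 against EC16 (12%). They were 17 in DW16 against DW8 (27.2%), 6 in EW16 against EW8 (11.4%) and 4 for the diet effect at 16 against 8 weeks in D mice (7.55%). Counting any probe set of a gene gave 4 in DW16 against DC16, 1 in DW8 against DC8, 3 in EW16 against EC16 and 4 in EW16 against EW8. A share of all genes counted by any probe set is not given here.

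Leaving out the narrow-range arrays gave 0 in DW16 against DC16 (0% of genes) and 6 in EW16 against EC16 (9.27%). It gave 0 in DW16 against DW8 (0%) and 0 in EW16 against EW8 (0%). Then 15 members had higher means in DW16 against DC16, against 4 over all mice. Among them were Tfe3 (0.01), Lipa (0.02), Atp6v1h (0.02) and Atp6v0d1 (0.23). The median of the members in DW16 against EW16 turned to 0.09, against -0.24 over all mice. Among narrow-range arrays only, chosen after seeing the data, Atp6v1b2 differed by 0.17 in DW16 against EW16, where the difference over all mice was -0.49. The cause was not tested.

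With the replicate number as a block the counts were 23 in DW16 against DC16 (22.1% of genes), 0 in EW16 against EC16 (0%) and 24 in DW16 against DW8 (22.6%). They were 0 in EW16 against EW8 (0%) and 14 for the diet effect at 16 against 8 weeks in D mice (14.7%). The same mice without the block, an alternative chosen after seeing the data, gave 24 (24.6%), 0 (0%), 26 (28.3%), 0 (0%) and 15 (16.7%). In the D mice this subset leaves out DW16 mice 6 to 9. Whether the numbers pair any mice is not known.

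Leaving out 1 mouse at a time gave 0 to 14 in DW16 against DC16 (14 without DW16 mouse 8, 10 without mouse 9, 0 without any other), 0 to 16 in DW16 against DW8 (16 without DW16 mouse 8, 12 without mouse 9, and 2 or fewer without any of DW8 mice 1 to 5 and DW16 mice 2 to 7), 0 to 4 in EW16 against EC16 (4 without EW16 mouse 4, 2 without mouse 3, 0 without any EC16 mouse), 0 to 4 in EW16 against EW8 (4 without EW16 mouse 4, 0 without any other mouse) and 0 to 6 for the diet effect at 16 against 8 weeks in D mice (6 without DW16 mouse 8, 2 without mouse 9). In the other 6 comparisons it gave 0 to 0. The share of all genes called in these fits is not given here. Of 1675 values of named members under an alternative, 1417 kept direction and side of the threshold, 112 lost the call, 141 gained it and 5 turned sign. With 2 to 7 mice on wider-range arrays in a group, the number of arrays limits the precision.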

Other observations

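Among the EW16 mice on arrays of the wider range, mouse 4 lay apart from mice 5 to 8 in several members, an observation made after their values were seen. Atg12 was 10.01 in mouse 4 and 11.17, 11.11, 11.02 and 11.03 in mice 5 to 8, against 10.05 to 10.65 in EC16 mice. Tfe3 was 9.70 in mouse 4 and 8.94 to 9.03 in mice 5 to 8, Atg3 was 11.70 in mouse 4 and 10.65 to 10.83 in mice 5 to 8, and Lipa was 9.97 in mouse 4 and 9.11 to 9.24 in mice 5 to 8. Map1lc3a was 12.84 in mouse 4 and 12.07 to 12.48 in mice 5 to 8, Rb1cc1 8.94 and 9.57 to 9.88, Atp6v1b2 10.83 and 11.59 to 11.70, and Atg16l1 9.36 and 9.82 to 9.97. In all of these genes mouse 4 was nearer to the EC16 mean than mice 5 to 8 were. Ulk1 was 10.21 in mouse 4 and 10.09 to 10.20 in mice 5 to 8.

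Ddit4, whose product restrains mTORC1, had a wide spread in Western diet mice. It was 11.89 and 11.90 in DW16 mice 8 and 9 and 10.05 to 11.12 in the narrow-range DW16 mice, against 10.77 to 11.31 in DC16 mice, and it was 11.28 to 11.94 in EW16 mice 4 to 8 and 10.18 to 10.41 in EW16 mice 1 to 3, against 10.65 to 11.27 in EC16 mice. Over the 5 wider-range EW16 mice the difference from EC16 was 0.63 (SE 0.142, limma adjusted p = 0.0113), and every one of them was above every EC16 mouse.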
